A study of Mus musculus with 7 samples.

Results

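Replication origins of mouse embryonic stem cells (mESCs) were compared between aphidicolin treatment (APH) and CDC6 overexpression (CDC6), with replicates 1 and 2 of each condition, which are 4 of the 7 samples in the series. The members were chosen by condition alone, and the MACS2 peak list of each library and the single list of origins of each condition were used, on autosomes and X. All 4 libraries came from TetO-CDC6 mESCs, a line made from the TetO-CDC6 mouse model and grown in serum with LIF on gelatin. The transgene was therefore carried by the APH cells too, but without doxycycline. APH cells received 0.5 µM aphidicolin for 2.5 h, and CDC6 cells received 1 µg/ml doxycycline for 30 h, so agent and duration differ together. Untreated cells were represented by WT 2, from the same line, and WT 1, from another mESC line grown in a different medium. Their values are given beside the others as the untreated background and entered no test.

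Origins are licensed in G1 phase, when ORC, CDC6 and CDT1 load the MCM helicase onto DNA, and a fraction of the licensed sites fires in S phase while the others stay dormant. Aphidicolin inhibits the replicative DNA polymerases, slows forks and lets dormant origins fire. CDC6 is needed for licensing, and its excess is a different way to alter how many sites are used. The comparison asks whether origins lie at the same sites when forks are slowed and when the loading factor is in excess. Short nascent strands, the pieces of DNA that begin with an RNA primer at a newly fired origin, were size-selected, freed of broken DNA with λ-exonuclease and sequenced, so a peak marks a stretch rich in such strands.

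Read depth is unknown here, and precision is limited by the numbers of peaks. APH 1 had 74540 peaks and APH 2 had 71435, while CDC6 1 had 72384 and CDC6 2 had 82071. The APH and CDC6 groups overlapped in this number, and the difference in means of -4240 peaks turned to 604 without CDC6 2. WT 1 held 94747 peaks and WT 2 held 81056. The median fold ratio of a peak over the control, which is the authors' value, was 2.60 for APH 1, 2.51 for APH 2, 2.51 for CDC6 1 and 2.73 for CDC6 2, with overlap between the groups as well. All lists were called against the same control. The peak names of CDC6 2 carry another library prefix than those of APH 1, APH 2, CDC6 1 and WT 2, and the meaning of the prefix is not stated. Whether the replicates were separate cultures is not stated in the labels, and p-values reflect the spread among these 4 libraries alone, which may be technical. DNA libraries measure neither CDC6 nor cell markers, so induction and cell identity were not checked.

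The labels of a second list deposited for each library go against those of the condition lists, and that list was not used. The condition lists were checked against the MACS peaks. Of 31653 APH origins, 99.98% met a peak of APH 1 and 100% one of APH 2, against 87.4% for CDC6 1, 86.5% for CDC6 2, 74.1% for WT 1 and 84.7% for WT 2. Of 31384 CDC6 origins, 99.95% met a peak of CDC6 1 and 100% one of CDC6 2, against 82.9% for APH 1, 88.0% for APH 2, 77.5% for WT 1 and 81.5% for WT 2. The condition lists therefore match the MACS lists of the same label.

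Chromosome X held a larger share of the peaks under aphidicolin. The share was 4.15% in APH 1 and 3.55% in APH 2, against 2.24% in CDC6 1 and 2.73% in CDC6 2. Both APH libraries lay above both CDC6 libraries, with means of 3.85% ± 0.42 and 2.49% ± 0.35 (SD, n = 2 each). The untreated libraries stood apart from each other, at 3.30% in WT 2 and 1.75% in WT 1. With 2 libraries against 2, the smallest exact two-sided permutation p is 0.333, or 0.431 after Benjamini-Hochberg adjustment over the 22 library measures compared, so such measures are reported by their size and by whether the groups overlap.

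A limma model of the log2 share of peaks over all 20 chromosomes called 3 chromosomes higher (15.0% of those tested) and 3 lower (15.0%) in APH. X had the highest difference, 0.63 ± 0.06 (log2, SE; limma adjusted p = 2.8e-11). Limma draws each variance towards those of the other chromosomes, so this SE and p are not the spread of X's own libraries alone. The limma SEs given below for bins and genes are moderated in the same way. Chromosomes 14 (0.16) and 13 (0.09) were also called higher, and chromosomes 11 (-0.17), 9 (-0.09) and 17 (-0.09) lower. The X difference ranged from 0.49 to 0.78 as each library was left out and stayed called, but at a −log10 q-value of at least 2 no chromosome was called (3 at an unadjusted p under 0.05) and X had a difference of 0.55. Without CDC6 1 or without CDC6 2, the number called higher was 1. No chromosome was called lower without APH 1 (3 in either direction at an unadjusted p under 0.05) or without CDC6 1 (5). Peaks on X were not stronger in APH: the median fold over the control on X was 2.55 in APH 1 and 2.41 in APH 2, below 2.63 in CDC6 1 and 2.68 in CDC6 2.

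**Figure D1:**
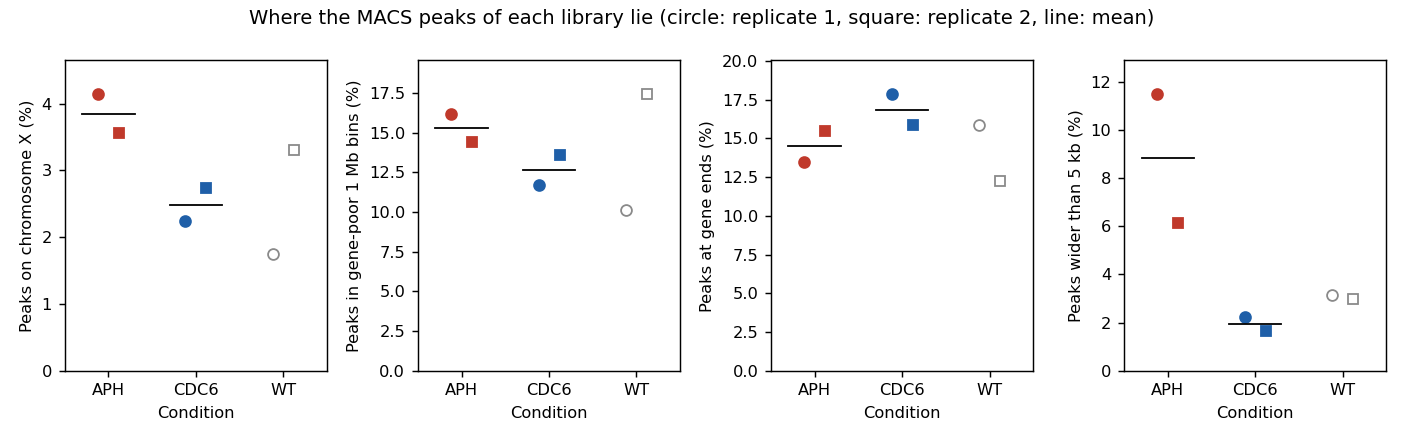
Share of each library's MACS peaks (%) on chromosome X, in the quintile of 1 Mb bins with the fewest genes, within 1 kb of a gene end, and wider than 5 kb, by condition. Points are libraries (circle, replicate 1; square, replicate 2) and black lines are means of the 2 libraries. APH lies above CDC6 in the first, second and last panels and below it in the panel of gene ends, and WT 1 and WT 2 stand apart from each other in the first 3 panels.

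Along the genome, the peaks of APH were spread further into regions with few genes. The 1 Mb bins were split into quintiles by their number of protein-coding genes. The 527 bins of the lowest quintile hold 0 or 1 gene, and the 528 bins of the highest hold 13 to 67. The next quintile above the lowest holds 1 to 4, because ties were split in chromosome order with X last. The X and autosomal bins of a quintile are therefore not exactly alike in gene number. The gene-poor quintile took 16.2% of the peaks in APH 1 and 14.4% in APH 2, against 11.7% in CDC6 1 and 13.6% in CDC6 2. The gene-rich quintile took 27.9% in APH 1 and 31.2% in APH 2, against 35.1% in CDC6 1 and 32.2% in CDC6 2. The groups did not overlap in either quintile, but at a −log10 q-value of at least 2 they overlapped in the gene-poor one. In the gene-poor quintile the untreated libraries lay outside this range on both sides, at 17.4% in WT 2 and 10.1% in WT 1. With autosomes alone the gene-poor share was 16.4%, 14.6%, 11.8% and 13.7%, in the same order of libraries, and the groups again did not overlap. The difference in means went from 2.65 to 1.46 percentage points when peaks wider than 5 kb were left out, a width chosen after the widths were seen.

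The number of peaks in each bin, scaled to the mean total, was then tested across 2545 bins. In APH, 153 bins (6.01%) were called higher and 120 (4.72%) lower, and 724 had an unadjusted p under 0.05. In 33.5% of the bins both APH libraries lay above both CDC6 libraries, and in 25.1% both lay below. The median log2 difference (APH minus CDC6) over all bins was 0.05. These counts rest on single libraries: the number called higher was 17 without APH 1, 12 without CDC6 1 and 25 without CDC6 2, and the number called lower was 14, 0 and 1 (190 without APH 2), with 424 bins at an unadjusted p under 0.05 without CDC6 1. In such fits the lone library is assumed to vary like the others. With equal numbers of the strongest peaks per library limma called 0 bins in either direction, with 658 at an unadjusted p under 0.05. Each of the 273 called bins kept its sign in each of these fits.

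On X, 48 of 152 bins were called higher in APH and 0 lower (0 lower at an unadjusted limma p under 0.05 as well), with a median difference of 0.62 (log2). The difference was above 0 in 146 of the 152. The median X bin held 20.2 peaks in APH 1 and 16.8 in APH 2, against 10.4 in CDC6 1 and 12.8 in CDC6 2, beside 15.8 in WT 2 and 7.93 in WT 1. The excess was thus spread along the chromosome. It was larger where genes were fewer, with medians of 0.90 and 0.83 in the lowest 2 quintiles and 0.31 and 0.19 in the highest 2.

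On autosomes, 105 of 2393 bins were called higher and 120 lower, with a median of 0.04. The median went stepwise from 0.26 in the gene-poor quintile to 0.15, 0.03, -0.09 and -0.20 in the gene-rich quintile. In the gene-poor autosomal quintile, 32 of 463 bins were called higher and 0 lower (2 at an unadjusted limma p under 0.05). In the gene-rich quintile, 16 of 504 were called higher and 54 lower. Across autosomal bins the difference and the number of genes had a Spearman correlation of -0.49 and a Pearson correlation of -0.32 (n = 2393 bins of the same 4 libraries, which are not independent). Bins called higher held a median of 4 protein-coding genes, bins called lower 12, and all bins tested 5.

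**Figure D2:**
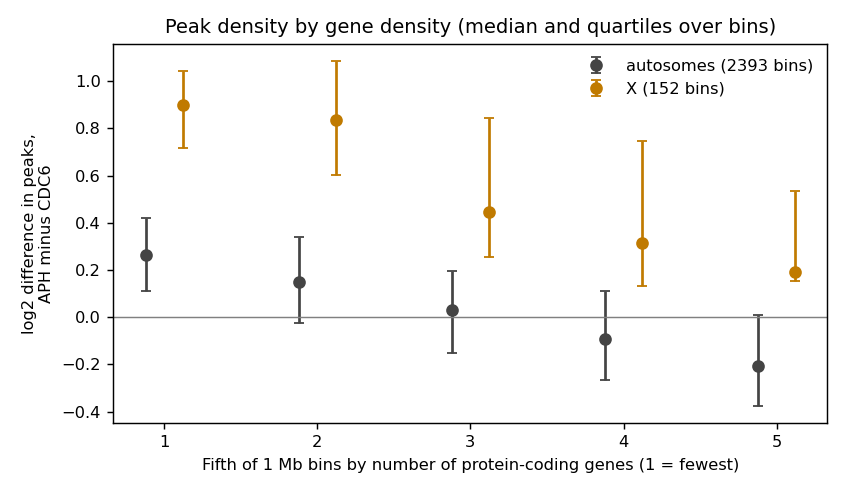
Difference in peaks per 1 Mb bin between APH and CDC6 (log2, APH minus CDC6) by quintile of the bins by number of protein-coding genes. Points are medians and bars run from the lower to the upper quartile over bins, for 2393 autosomal and 152 X bins. Medians fall from 0.26 to -0.20 on autosomes and from 0.90 to 0.19 on X.

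The bins with the smallest p that were higher in APH were mostly clusters of like-named genes. The first was chromosome 4, 60 to 61 Mb, which holds 10 Mup genes for major urinary proteins, lipocalins that carry pheromones in urine. It had 59.4 scaled peaks in APH 1 and 48.4 in APH 2, against 11.4 in CDC6 1 and 9.15 in CDC6 2, beside 51.0 in WT 2 and 14.3 in WT 1. The APH libraries and WT 2 were high and the CDC6 libraries and WT 1 low. The log2 difference of 2.28 ± 0.18 (SE; limma adjusted p = 2.8e-07) is 4.87-fold on the scale of the number plus 1. The adjacent bin, 61 to 62 Mb, holds Mup5 and Mup13 to Mup19 and had 60.5, 43.1, 19.7 and 11.9 scaled peaks in APH 1, APH 2, CDC6 1 and CDC6 2, with 50.0 in WT 2 and 13.5 in WT 1, a log2 difference of 1.67 ± 0.20 (SE; limma adjusted p = 2.8e-05). Of the 4 tested bins with a Mup gene, these were the 2 called, a list added after the bins were seen.

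Chromosome 14 gave 4 of the 8 bins, in 2 separate regions. At 4 to 5 Mb, a cluster of predicted genes such as Gm26650 and Gm3115, the numbers were 80.6 in APH 1 and 78.9 in APH 2, against 24.9 in CDC6 1 and 15.6 in CDC6 2, with 37.1 in WT 2 and 19.8 in WT 1. At 6 to 7 Mb, another such cluster, they were 109 in APH 1 and 104 in APH 2, against 36.3 in CDC6 1 and 21.0 in CDC6 2, with 54.7 in WT 2 and 30.1 in WT 1. In both bins the APH libraries lay above WT 2 too, and the log2 differences were 1.96 ± 0.17 and 1.91 ± 0.20 (SE; limma adjusted p = 4.6e-07 and 5.7e-06). The bins at 41 to 42 Mb and 42 to 43 Mb had log2 differences of 1.32 and 1.63. The first of them also holds Sftpa1 and Sftpd, which encode lung surfactant proteins, and Mbl1, which encodes a mannose-binding lectin.

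The remaining pair lay on chromosomes 13 and 12. The bin on chromosome 13, 66 to 67 Mb, holds Ptdss1, which makes phosphatidylserine, Uqcrb, a subunit of respiratory complex III, and several predicted genes. It had 82.6 and 76.8 scaled peaks in APH 1 and APH 2 and 23.9 and 25.6 in CDC6 1 and CDC6 2 (log2 difference 1.65). Here WT 1 (57.9) and WT 2 (63.0) lay close together, between the conditions. The bin on chromosome 12, 23 to 24 Mb, holds 3 predicted genes and had 50.4 and 45.2 in APH and 20.8 and 21.0 in CDC6 (log2 difference 1.15), with 29.3 in WT 1 and 29.7 in WT 2. Reads from near-identical copies can be placed in more than 1 way, and the sources used here do not say how they were treated. The part of read placement in these bins was not tested.

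The bins with the smallest p that were lower in APH held genes of many families and differed by at most 1.87-fold. The first, chromosome 5, 35 to 36 Mb, holds Adra2c, an adrenergic receptor gene, and Hmx1, a homeobox gene. It had 38.3 scaled peaks in APH 1 and 42.1 in APH 2, against 78.9 in CDC6 1 and 73.2 in CDC6 2, with 27.8 in WT 2 and 65.0 in WT 1. The APH libraries and WT 2 were low and the CDC6 libraries and WT 1 high, and the log2 difference was -0.90 ± 0.15 (SE; limma adjusted p = 0.0018). A bin on chromosome 7, 144 to 145 Mb, holds Ccnd1, which encodes cyclin D1, and the growth factor genes Fgf3, Fgf4 and Fgf15. It had 28.2 in APH 1 and 32.6 in APH 2, against 48.8 in CDC6 1 and 51.2 in CDC6 2 (log2 difference -0.70), with 16.7 in WT 2 and 48.4 in WT 1. Another on chromosome 9, 63 to 64 Mb, holds Smad3 and Smad6, a transducer and an inhibitor of TGF-β family signals, and had 18.1, 22.1, 40.5 and 32.9 in the same order (log2 difference -0.84).

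The other 5 bins had log2 differences between -0.84 and -0.72. One on chromosome 2, 34 to 35 Mb, holds Hspa5, the main chaperone of the endoplasmic reticulum, and Pbx3, a homeobox gene. The bin on chromosome 19, 53 to 54 Mb, holds Smc3, a cohesin subunit, and Mxi1, a MYC antagonist. Another, on chromosome 6, 113 to 114 Mb, holds Fancd2 of the Fanconi anaemia pathway, the tumour suppressor gene Vhl and Ogg1, a DNA glycosylase gene. The others were on chromosome 11, 76 to 77 Mb, with Abr and Vps53, and on chromosome 9, 56 to 57 Mb, with Cspg4 and Lingo1. In all 8 lower bins both APH libraries lay below both CDC6 libraries.

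**Figure D3:**
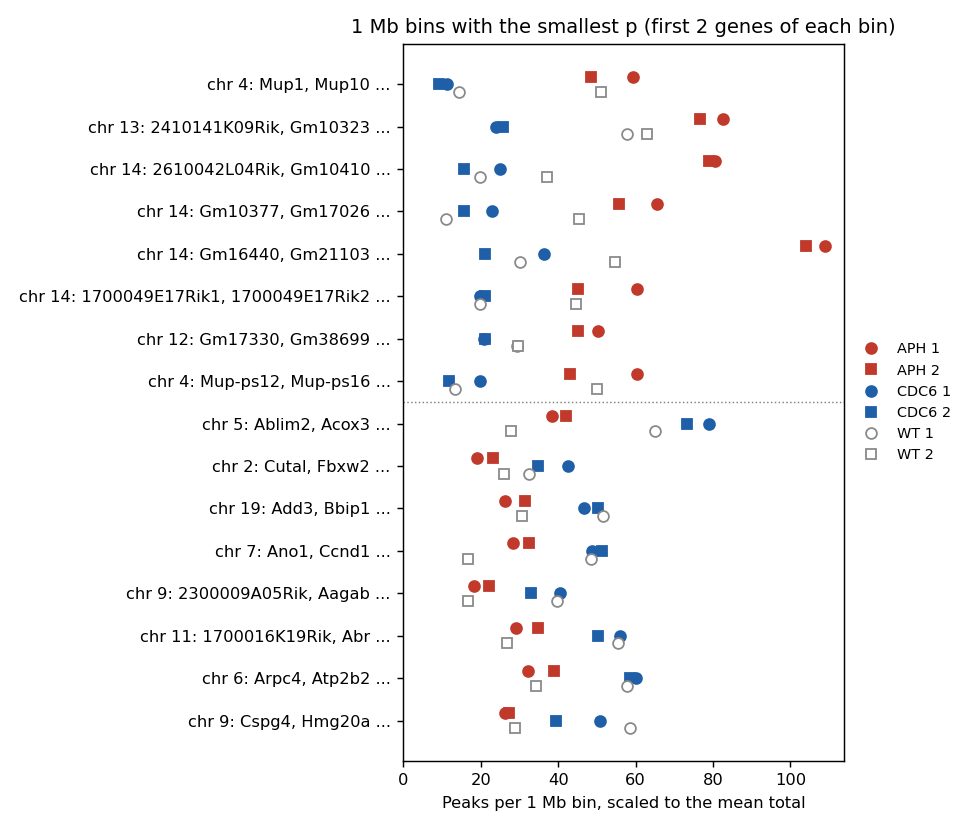
Number of MACS peaks per 1 Mb bin, scaled to the mean total, in each library for the 8 bins with the smallest p in each direction (above the dotted line, higher in APH; below, lower). Each bin is named by its chromosome and its first 2 genes in alphabetical order. APH (red) and CDC6 (blue) do not overlap in any of the 16 bins, and WT 2 lies nearer to APH than WT 1 does in most of them.

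Next, 2672 protein-coding genes with bodies of 50 kb or more were tested in the same way. In APH, 16 genes (0.599%) were called higher and 63 (2.36%) lower, and 584 had an unadjusted p under 0.05. The median log2 difference over all long genes tested was -0.14, so a typical gene among them held fewer scaled peaks in APH. In 34.1% of the genes both APH libraries lay below both CDC6 libraries, and in 16.4% above. The number called higher was 7 without APH 1, 26 without APH 2, 68 without CDC6 1 and 84 without CDC6 2, and the number called lower was 30, 177, 121 and 224. With peaks of at most 5 kb, limma called 0 genes in either direction (462 at an unadjusted p under 0.05).

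Of the 10 genes with the smallest p that were higher in APH, 3 lie on X. Zc3h12b, which encodes a CCCH zinc-finger protein, had 8.06 scaled peaks in APH 1 and 8.41 in APH 2, against 2.08 in CDC6 1 and 2.75 in CDC6 2, with 6.49 in WT 2 and 2.38 in WT 1 (log2 difference 1.44 ± 0.26, SE; limma adjusted p = 0.019). Mageb18, of the melanoma antigen family, had 11.1, 7.36, 3.11 and 0.915 in the same order, with 11.1 in WT 2 and 2.38 in WT 1 (log2 difference 1.84). The third was 3830403N18Rik, with a log2 difference of 1.54. In all 3, WT 2 was with the APH libraries and WT 1 with the CDC6 libraries.

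Ryr3, which encodes a ryanodine receptor, a calcium channel of intracellular stores, is 586 kb long and had 13.1 scaled peaks in APH 1 and 11.6 in APH 2, against 4.15 in CDC6 1 and 5.49 in CDC6 2 (log2 difference 1.20 ± 0.23, SE; limma adjusted p = 0.020). Csgalnact1, an enzyme of chondroitin sulfate synthesis, had 11.1, 11.6, 4.15 and 5.49 (log2 difference 1.09). In these 2 genes both untreated libraries were with APH: Ryr3 had 11.9 in WT 1 and 13.0 in WT 2, and Csgalnact1 15.9 and 11.1. CDC6 thus stood apart from both untreated libraries in Ryr3 and Csgalnact1. In the X genes above it stood apart from WT 2, of the same line, but not from WT 1. The other 5 were predicted genes, Gm26650, Gm21154, Gm7827, Gm14393 and Gm40862, with log2 differences from 1.14 to 1.78. Gm26650 and Gm40862 lie in bins described above and share their peaks with them.

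The genes lower in APH were spread over many chromosomes. Plcg2, which encodes a phospholipase C of immune receptor signalling, had 3.02 scaled peaks in APH 1 and 3.15 in APH 2, against 10.4 in CDC6 1 and 10.98 in CDC6 2, with 1.85 in WT 2 and 14.3 in WT 1. The log2 difference was -1.51 ± 0.23 (SE; limma adjusted p = 0.014). Poc1a, a centriole component, had 1.01, 1.05, 6.23 and 6.41 in the same order, with 0.927 in WT 2 and 3.17 in WT 1 (log2 difference -1.85 ± 0.29, SE; limma adjusted p = 0.014). Arid1b, a subunit of the BAF chromatin remodelling complex, had 5.04, 5.26, 12.5 and 12.8, with 5.56 in WT 2 and 15.1 in WT 1 (log2 difference -1.15). In these 3 genes WT 2 was again low. WT 1 was above both CDC6 libraries in Plcg2 and Arid1b and lay between the conditions in Poc1a. Plcg2 is another gene of chromosome 8, where WT 1 was high as a whole (8.26% of its peaks), and its WT 1 value was not adjusted for this.

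Mad1l1, a gene of the spindle checkpoint, had 6.05 and 8.41 scaled peaks in APH 1 and APH 2 and 16.6 and 18.3 in CDC6 1 and CDC6 2 (log2 difference -1.18). Zmiz1, a transcriptional coregulator, had 7.05 and 4.21 against 14.5 and 16.5 (log2 difference -1.35). The others were Kazn, Atp11a (a phospholipid flippase), Rnft2, Ppp2r5c (a regulatory subunit of protein phosphatase 2A) and Galnt16 (an enzyme that starts O-glycans), with log2 differences from -1.81 to -1.42. Of these 5 genes, each had at most 3.15 scaled peaks in either APH library and at least 5.19 in either CDC6 library.

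Common fragile sites are long genes in which aphidicolin provokes breaks, and they hold few origins in some cell types. Of 30 mouse orthologues of genes at such sites, 0 were called by limma in either direction and 4 had an unadjusted p under 0.05, against 21.9% of all long genes. Their median log2 difference was 0.06, against -0.14 over all long genes. In 7 the APH libraries lay above both CDC6 libraries and in 6 below, where the shares over all long genes were 16.4% and 34.1%. Fhit had 22.2 scaled peaks in APH 1 and 19.98 in APH 2, against 22.8 in CDC6 1 and 29.3 in CDC6 2, and Wwox had 25.2, 24.2, 19.7 and 24.7, so that APH and CDC6 overlapped in Wwox and came within 1 peak of each other in Fhit. Il1rapl1, on X, had the highest difference, with 16.1, 13.7, 5.19 and 10.1 (log2 0.94, limma adjusted p = 0.066), and Fto the lowest, with 6.05, 10.5, 12.5 and 12.8 (log2 -0.60, limma adjusted p = 0.17).

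Peaks of great width were more frequent in the APH libraries, and most of them lay in other kinds of regions than the wide peaks of CDC6. Peaks wider than 5 kb made up 11.5% of APH 1, 6.13% of APH 2, 2.24% of CDC6 1 and 1.64% of CDC6 2, beside 3.13% of WT 1 and 2.97% of WT 2. Their numbers were 8570, 4378, 1619 and 1343 in the 4 libraries. Median widths of all peaks differed far less, at 1131, 1125, 1120 and 1033 bp, and overlapped between the groups at a −log10 q-value of at least 2 and with equal numbers of the strongest peaks. The length covered was 156 Mb in APH 1 and 129 Mb in APH 2, against 111 Mb in CDC6 1 and 114 Mb in CDC6 2.

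Of the wide peaks, 4.96% in APH 1 and 12.7% in APH 2 lay at a gene end, against 64.0% in CDC6 1 and 65.2% in CDC6 2. The untreated libraries split, with 12.3% in WT 2 and 58.2% in WT 1. The gene-poor quintile of bins held 27.0% and 22.1% of the wide peaks in APH 1 and APH 2 but 0.679% and 0.521% in CDC6 1 and CDC6 2, with 22.0% in WT 2 and 1.31% in WT 1. On X lay 6.99% and 5.76% of them in APH and 0.432% and 0.223% in CDC6. The wide peaks of WT 2 were thus placed like those of APH, although WT 2 had 2408 of them and WT 1 had 2968.

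At 3562 sites both APH libraries had a peak wider than 5 kb. Each site is the wide peak of APH 1 that met a wide peak of APH 2, with a median width of 6792 bp. CDC6 1 had some peak at 84.3% of these sites and CDC6 2 at 81.0%, but a wide one at 8.39% and 7.16%, and their peaks covered a median of 26.1% and 20.7% of the site. WT 2 had a peak at 99.2% of them and covered a median of 62.1%. Conversely, at 897 sites, each a wide peak of CDC6 1 that met one of CDC6 2, both CDC6 libraries had a wide peak. Of these, 69.2% were at a gene end and 78.7% in the gene-rich quintile, and APH 1 and APH 2 had a peak at 95.7% and 98.4% of them. That peak was itself wider than 5 kb at 28.9% of the sites in APH 1 and 47.5% in APH 2. Wide CDC6 sites were thus more often wide in APH than wide APH sites were in CDC6. This contrast was not separated from the totals of wide peaks. CDC6 1 and CDC6 2 had 1619 and 1343 in all, fewer than the 3562 APH sites, while APH 1 and APH 2 had 8570 and 4378.

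The peaks of the 4 libraries were merged into 118620 sites. Of these, 36220 (30.5%) had a peak in all 4 libraries. Both APH libraries and neither CDC6 library had a peak at 9892 sites, of which 2.53% were at a gene end and 8.02% on X. Both CDC6 libraries and neither APH library had a peak at 10553 sites, of which 14.2% were at a gene end and 1.04% on X. Over all sites, 12.6% were at a gene end and 3.59% on X. The 4 pairings of 1 APH with 1 CDC6 library alone gave 1180 to 2864 sites each, fewer than either condition's own pair. The untreated libraries divided here too: WT 2 had a peak at 61.0% and WT 1 at 27.2% of the APH sites, while WT 2 had one at 23.1% and WT 1 at 55.8% of the CDC6 sites.

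The single lists of origins for each condition were of nearly equal length and shared about the same share of each. Of the APH list, 63.7% (20173 origins, 95% Wilson interval 63.2% to 64.3%) overlapped the CDC6 list, and of the CDC6 list, 64.2% (20154 origins, 63.7% to 64.7%) overlapped the APH list. Intervals cover counting error only. The 11480 APH origins outside the CDC6 list were at a gene end in 5.39% of cases (4.99% to 5.82%), and the 11230 CDC6 origins outside the APH list in 19.5% (18.8% to 20.3%). Shared origins were at a gene end in 30.2%. X held 4.02% of the APH-alone and 2.29% of the CDC6-alone origins, and gene bodies held 39.5% and 54.7%. With 1 list a condition there is no replicate check of these shares, and their gene-end difference was 14.1 percentage points. In lists rebuilt from the MACS peaks it was 11.9, and 6.47 without CDC6 1, 8.60 without APH 1 and 9.15 without CDC6 2.

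Being outside the other list did not mean being without a peak there. CDC6 1 had a peak at 65.2% and CDC6 2 at 62.9% of the APH-alone origins, and APH 1 had one at 52.1% and APH 2 at 66.5% of the CDC6-alone origins. Neither CDC6 library had a peak at 1917 APH-alone origins (16.7%), of which 2.03% were at a gene end and 8.09% on X. Neither APH library had one at 3023 CDC6-alone origins (26.9%), of which 12.3% were at a gene end and 1.82% on X. WT 2 had a peak at 48.1% of the former and 26.0% of the latter.

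Within 1 kb of an end of a protein-coding gene, called a gene end here, lay 13.5% of the peaks in APH 1 and 15.5% in APH 2, against 17.9% in CDC6 1 and 15.8% in CDC6 2, beside 15.9% in WT 1 and 12.3% in WT 2. The groups did not overlap but came close, and the difference in means shrank from -2.36 to -0.77 percentage points without peaks wider than 5 kb. The groups overlapped then, and also at a −log10 q-value of at least 2. Which end is the start was known for 17273 of the 21627 genes, so the next 2 shares leave out the other genes. Ends where transcription starts took 9.06%, 10.3%, 11.6% and 10.2%, and overlapped between the groups. The 3′ ends took 2.81%, 3.39%, 4.46% and 3.95%, which did not overlap. Gene bodies held 41.2%, 44.1%, 50.0% and 48.4%. Strong peaks were more often at gene ends in all 4 libraries. Of the top decile by −log10 q-value, the share at a gene end was 47.5% for APH 1, 54.2% for APH 2, 56.6% for CDC6 1 and 54.3% for CDC6 2. Of the lowest decile it was 7.49%, 5.71%, 5.37% and 6.91%.

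Counted by gene, 6688 of 21627 protein-coding genes had an origin at an end in both lists, 519 (2.40%) in the APH list alone and 2097 (9.70%) in the CDC6 list alone. The counts given below for lists of genes are a description, to be read against these shares and, for bins, against 6.01% called higher and 4.72% lower over all bins. Of 39 Hox genes, which pattern the body axis, 16 had an origin in both lists, 11 in the CDC6 list alone and 1, Hoxd11, in the APH list alone. Of 62 other developmental transcription factor genes, 40 were in both lists, 10 in the CDC6 list alone and 0 in the APH list alone. Foxa2, Isl1, Pax2, Pax7, Tbx5 and Zic1 were among the 10. Most of these genes still had a MACS peak in the APH libraries, with 83.9% of the 62 in APH 1 and 90.3% in APH 2, against 96.8% in CDC6 1 and 93.5% in CDC6 2. Of their 56 bins, 0 were called higher and 6 lower in APH, and of the 5 bins of Hox genes limma called 0 (0 at an unadjusted p under 0.05).

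The canonical histone genes, short genes in clusters that supply the histones of S phase, had the lowest share of genes with a peak in APH relative to CDC6. Of 63, a MACS peak at an end was present for 39.7% in APH 1 and 54.0% in APH 2, against 87.3% in CDC6 1 and 90.5% in CDC6 2, with 58.7% in WT 2 and 93.7% in WT 1. The same shares over all protein-coding genes were 48.3%, 52.4%, 59.4% and 59.3%, with 48.1% in WT 2 and 66.4% in WT 1. In the condition lists, 15 histone genes were in both, 14 in the CDC6 list alone (H3c1, H4c1, H2bc3 and H2ac10 among them) and 0 in the APH list alone. Neighbouring histone genes can share a peak, so they are not independent. Of the 4 bins that hold them, limma called 0 (1 at an unadjusted p under 0.05), with a median log2 difference of -0.14.

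The 81 cytosolic ribosomal protein genes had an origin in both lists for 14, in the CDC6 list alone for 15 and in the APH list alone for 3 (Rpl26, Rpl31 and Rps9). Peaks at their ends were present for 44.4% in APH 1 and 56.8% in APH 2, against 69.1% in CDC6 1 and 66.7% in CDC6 2. Of their 75 bins, 1 was called higher and 8 lower in APH. Of 25 pluripotency factor genes, 11 were in both lists, Klf4, Sall4 and Myc among them, and 3 in the CDC6 list alone: Pou5f1 and Sox2, which encode core factors of the embryonic stem cell state, and Tbx3. Their peak shares were alike, at 68.0%, 64.0%, 64.0% and 68.0% in APH 1, APH 2, CDC6 1 and CDC6 2. Of their 23 bins, 1 was called higher and 2 lower.

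Genes of replication itself gave the following counts. Of 19 genes of licensing and the MCM helicase, 5 were in both lists (Mcm3, Mcm6, Mcm8, Mcmbp and Orc2), 3 in the CDC6 list alone (Mcm5, Orc3 and Gmnn, which encodes the licensing inhibitor geminin) and 0 in the APH list alone. A peak was present for 42.1% and 47.4% in APH and 84.2% and 68.4% in CDC6, and 1 of their 19 bins was called lower and 0 higher. Of 39 genes of origin firing, polymerases and primase, 13 were in both lists, 7 in the CDC6 list alone, such as Topbp1, Pole and the GINS genes Gins1, Gins3 and Gins4, and 0 in the APH list alone. Of their 38 bins, 2 were called higher and 4 lower. Of 34 genes of the ATR checkpoint and the Fanconi anaemia pathway, 12 were in both lists, Atr and Wee1 among them, 3 in the CDC6 list alone (Brca2, Hltf and Zranb3) and 0 in the APH list alone. Of their 33 bins, 0 were called higher and 2 lower. The share of genes in the CDC6 list alone was 8.82% for the checkpoint list and 12% for the pluripotency list, near the 9.70% of all genes, and 15.8% and 17.9% for the licensing and firing lists.

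Of the 30 genes of fragile sites, at their ends, 12 had an origin in both lists and 5 in the CDC6 list alone (Fhit, Wwox, Immp2l, Ctnna3 and Gpc6). Receptor gene clusters rarely had an origin in either list. Of 1110 olfactory receptor genes, 10 were in both lists, 3 in the APH list alone and 6 in the CDC6 list alone, and of their 84 bins 7 were called higher and 3 lower. Of 353 vomeronasal receptor genes, which detect pheromones, the counts were 7, 3 and 2, and 12 of their 50 bins were called higher and 3 lower. Of 171 genes numbered Zfp600 to Zfp999, many of which encode zinc-finger proteins in clusters, 35 were in both lists, 4 in the APH list alone and 12 in the CDC6 list alone, and 10 of 89 bins were called higher and 5 lower. Over all bins, 6.01% were called higher and 4.72% lower.

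**Figure D4:**
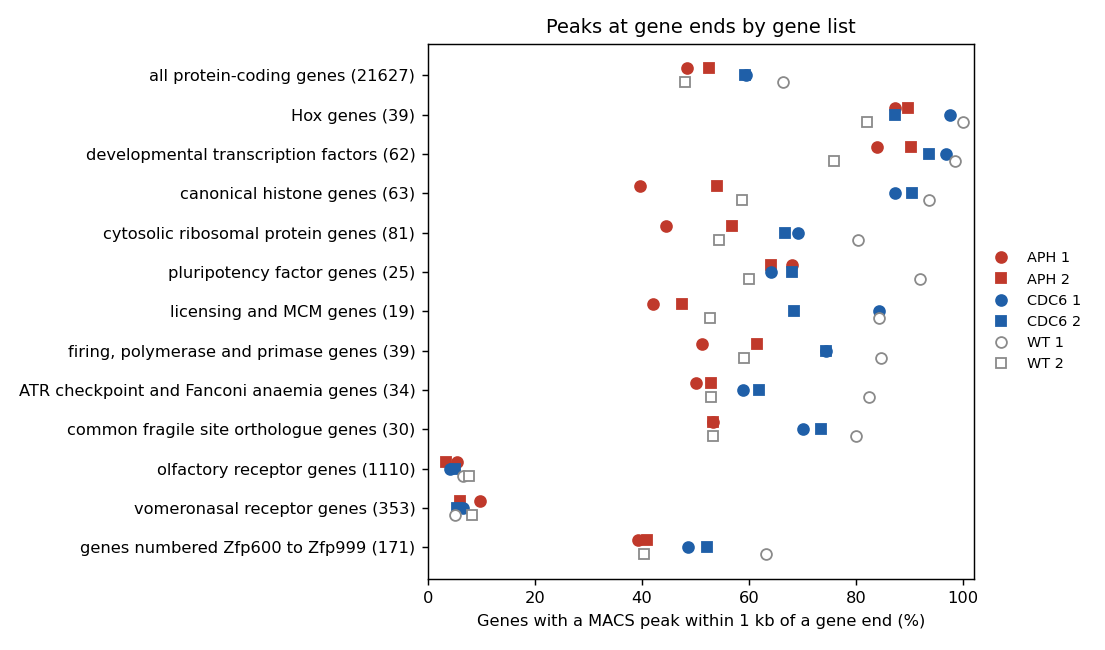
Share of the genes of each list (%; number of genes in brackets) with a MACS peak within 1 kb of a gene end, by library. Canonical histone genes have the widest gap, at 39.7% and 54.0% in APH against 87.3% and 90.5% in CDC6, and APH and CDC6 overlap for the pluripotency, Hox, olfactory and vomeronasal lists.

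Some gene ends had an origin in the list of 1 condition and no MACS peak in either library of the other. There were 39 such APH origins and 372 such CDC6 origins, and the 8 of each with the highest rank by −log10 q-value are named. Positions are on mm10. In APH the first was at the 3′ end of Crtap, a gene of collagen modification (chr9:114374247-114374787), with a fold over the control of 3.48 in APH 1 and 3.73 in APH 2, and WT 1 had a peak there at 4.64. Enpp3, which encodes a nucleotide phosphodiesterase, had one near its start (chr10:24835444-24836050) at 3.35 and 3.27, and Mageb4 on X (chrX:86255345-86255851) at 4.00 and 3.32. The others were Rnaset2b, Arid5a, Thbs2, Gm2a and 4930523C07Rik. Of the 8, WT 1 had a peak at all but Enpp3, and WT 2 at Enpp3 and Mageb4, so each was met in untreated cells.

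The CDC6 ones came from a larger number and ranked higher within their libraries. The first lay at the 3′ end of Cd209b, a C-type lectin gene (chr8:3916378-3917011), with folds of 8.29 in CDC6 1 and 5.59 in CDC6 2 and no peak in WT 1 or WT 2. Zdhhc25, a gene of the palmitoyltransferase family (chr15:88599891-88600845), had 5.34 and 5.89, with a peak of 2.48 in WT 1. Ahrr, the repressor of the aryl hydrocarbon receptor (chr13:74293277-74293940), had 4.78 and 4.27 and no peak in WT 1 or WT 2. The others were at Slc25a1, the mitochondrial citrate carrier, at the ends of Cybc1 and Hexdc, and at Gm52051, Sox6 and Wdr88, where both WT libraries had a peak.

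The sequence around start sites differed between the classes. RefSeq promoter windows of GRCm38.p6, from 250 bases before to 50 after the start, were given for 17273 of the 21627 genes. Where an origin within 1 kb of the start was in both lists (5143 genes), the median GC content was 66.3% and the window held a median of 26 CpG dinucleotides. In the CDC6 list alone (1567 genes) these were 61.7% and 21, in the APH list alone (323 genes) 58.3% and 13, in neither (10240 genes) 51.0% and 5, and over all windows 56.3% and 14. CpG observed over expected had medians of 0.83 in both lists, 0.74 in the CDC6 list alone and 0.59 in the APH list alone, against 0.58 over all windows. The APH-alone starts therefore had about the CpG content of promoters as a whole, and the CDC6-alone starts more. A run pattern of G-quadruplexes, 4 runs of GGG, or of CCC on the other strand, with loops of 1 to 7 bases of any kind, was sought. It was present in 39.7%, 24.6% and 35.3% of the windows of both lists, CDC6 alone and APH alone, and in 21.4% of all windows. X held 7.12% of the APH-alone and 2.74% of the CDC6-alone windows, against 4.73% of all windows and 6.22% of those in neither list.

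Windows of the first gene ends named above whose origin lay within 1 kb of the start are shown for their CpG content, 5′ to 3′ along the gene, with each CpG in capitals. The condition on the distance to the start was added after the rule for named genes. For APH they are Enpp3 (chr10:24836146-24836445, minus strand, GC 40.7%, 5 CpG) and Mageb4 (chrX:86256170-86256469, minus strand, GC 56.7%, 11 CpG). For CDC6 they are Zdhhc25 (chr15:88600052-88600351, plus strand, GC 53.0%, 4 CpG) and Gm52051 (chr13:98924162-98924461, plus strand, GC 47.3%, 2 CpG).
Enpp3: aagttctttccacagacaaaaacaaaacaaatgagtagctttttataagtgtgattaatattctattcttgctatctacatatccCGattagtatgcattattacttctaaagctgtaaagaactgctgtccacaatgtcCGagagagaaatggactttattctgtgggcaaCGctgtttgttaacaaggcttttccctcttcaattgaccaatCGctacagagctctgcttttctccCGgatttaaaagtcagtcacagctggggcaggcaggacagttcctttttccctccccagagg
Mageb4: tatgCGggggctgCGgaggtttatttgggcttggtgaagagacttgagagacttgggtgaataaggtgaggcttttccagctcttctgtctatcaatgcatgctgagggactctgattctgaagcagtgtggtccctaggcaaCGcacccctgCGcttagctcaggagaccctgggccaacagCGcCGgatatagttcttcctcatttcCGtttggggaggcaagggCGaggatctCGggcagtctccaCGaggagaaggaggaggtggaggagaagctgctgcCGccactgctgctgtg
Zdhhc25: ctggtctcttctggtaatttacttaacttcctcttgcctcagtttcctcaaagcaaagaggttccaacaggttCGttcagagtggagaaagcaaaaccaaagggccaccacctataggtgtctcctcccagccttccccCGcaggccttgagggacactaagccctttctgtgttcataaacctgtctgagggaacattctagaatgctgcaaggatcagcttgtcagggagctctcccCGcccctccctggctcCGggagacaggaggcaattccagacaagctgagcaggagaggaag
Gm52051: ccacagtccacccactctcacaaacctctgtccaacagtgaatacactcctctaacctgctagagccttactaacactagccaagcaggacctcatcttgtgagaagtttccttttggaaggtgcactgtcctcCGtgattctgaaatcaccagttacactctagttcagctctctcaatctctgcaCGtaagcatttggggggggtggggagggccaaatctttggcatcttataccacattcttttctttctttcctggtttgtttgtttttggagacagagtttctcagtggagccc
All 4 windows had fewer CpG than the median of 14 over all windows. Of the 4, the Gm52051 window held the G-quadruplex pattern. Loops could be of any base, G included, and its longest run of G was counted there as more than 1 run.

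Foxa2, a factor of endoderm and floor plate, and Hoxa2, a Hox gene of the hindbrain, show starts of developmental genes with an origin in the CDC6 list alone. They are the first 2 such genes by symbol and were chosen after the classes were seen. Foxa2 (chr2:148046920-148047219, minus strand) had a GC content of 54.3% and 12 CpG, and Hoxa2 (chr6:52164782-52165081, minus strand) 45.7% and 9.
Foxa2: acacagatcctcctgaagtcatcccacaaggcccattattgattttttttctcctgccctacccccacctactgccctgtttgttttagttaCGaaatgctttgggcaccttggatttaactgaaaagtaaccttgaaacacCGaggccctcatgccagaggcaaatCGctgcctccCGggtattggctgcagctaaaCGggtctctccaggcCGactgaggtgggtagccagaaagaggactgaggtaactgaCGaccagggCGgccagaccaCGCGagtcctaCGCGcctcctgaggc
Hoxa2: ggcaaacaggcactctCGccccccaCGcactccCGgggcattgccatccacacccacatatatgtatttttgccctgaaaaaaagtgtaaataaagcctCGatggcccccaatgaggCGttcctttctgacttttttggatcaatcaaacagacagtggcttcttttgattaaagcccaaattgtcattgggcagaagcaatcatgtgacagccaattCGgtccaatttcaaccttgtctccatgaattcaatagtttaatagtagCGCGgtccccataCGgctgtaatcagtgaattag
Among the Hox and developmental transcription factor genes with a window, the median number of CpG was 26 at the 37 starts in both lists. It was 13 at the 10 starts in the CDC6 list alone and 6.5 at the 2 starts in the APH list alone. At the 14 starts in neither list it was 12.5.

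Peaks of APH less often had another peak within 10 kb. A neighbouring peak lay within 10 kb of 40.0% of the peaks in APH 1 and 44.1% in APH 2, against 46.7% in CDC6 1 and 49.6% in CDC6 2, beside 45.2% in WT 2 and 56.0% in WT 1. The groups did not overlap at 10 kb, where the difference in means was -6.11 percentage points. Within 5 kb the difference was -0.46 and the groups overlapped. At 10 kb it was -4.55 with equal numbers of the strongest peaks and -7.74 at a −log10 q-value of at least 2. The part of peak width in this measure was not tested.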

How the data were processed

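The files hold peaks and no reads. The tools named in the submitters' processing notes are MACS2 2.0.10 for peaks, by the layout of the lists, with BWA 0.7.10, Picard 1.107 and SAMtools 0.1.19 (also FastQC and bedtools 2.23.0), and no role or setting is stated there. The MACS lists deposited by the authors give for each peak a score, a fold ratio over the control, and −log10 p-values and q-values, per the file headers and layout. Deposited peaks are at least 400 bp wide with a −log10 q-value of at least 1.00. The deposited condition lists carry 2 score columns by the authors whose meaning is not stated, and these were not used. No source used here says how the authors combined libraries into a condition list. Coordinates fit mm10, and genes and promoter windows came from RefSeq tables of GRCm38.p6.

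Samples were grouped by title. The members and gene lists were chosen with earlier results of these data known. Peaks were placed by midpoint in 1 Mb bins or in gene bodies of 50 kb or more. Their numbers were scaled to the mean total over the 4 libraries. The limma 3.58.1 fit (R 4.3.3; lmFit, then eBayes using a trend) was made on log2 of the scaled number plus a pseudocount of 1, with Benjamini-Hochberg adjustment over all features and a threshold of 0.05. Bins with a mean of at least 5 and genes with a mean of at least 3 were kept. These fits were tested on simulated data. Library measures were compared by exact permutation over 6 splits. Overlap means at least 1 bp. Named were the 8 bins and 10 long genes with the smallest p in each direction, and the 8 gene ends of each list with the highest lower percentile by −log10 q-value and no peak in the other condition. Alternatives varied the q-value minimum, bin size, measure, filter, pseudocount, trend, library left out and replicate block. Same-numbered libraries deviated with a correlation of -0.29 over bins and -0.09 over long genes.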

Additional observations from a re-analysis of the deposited data

How the results depend on the processing

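Depth is unknown, so numbers of peaks cannot be separated from sequencing effort, and 2 libraries a condition limit each count. The directions of the shares on X, in gene-poor bins, at gene ends, in gene bodies and with a near neighbour, and of the named bins, genes and chromosomes, were kept in each alternative run; calls were not, and the cause was not tested. Bins called higher and lower in APH numbered 42 and 27 at a −log10 q-value of at least 2, 297 and 230 with 500 kb bins, 1035 and 529 by covered kb, 95 and 12 with no trend, and 0 and 0 (658 at an unadjusted limma p under 0.05) with equal numbers of the strongest peaks. Leaving out 1 library gave 12 to 118 higher and 0 to 190 lower bins, 7 to 84 higher and 30 to 224 lower genes, and 1 to 3 higher and 0 to 3 lower chromosomes. Long genes called higher and lower numbered 9 and 31 at a −log10 q-value of at least 2, 324 and 861 by covered kb, and 0 and 0 (462 at an unadjusted limma p under 0.05) with peaks of at most 5 kb, an alternative chosen after seeing the data; 9 were called higher with equal numbers of the strongest peaks. The genes called changed as well as their number. Of the 16 higher and 63 lower long genes of the main fit, 0 and 11 were called with equal numbers of the strongest peaks. With no filter, 1 and 2 of them were called. Covered kb moved the median log2 difference of all bins to 0.26 and of all long genes to -0.42. Chromosomes called were 0 and 0 at a −log10 q-value of at least 2 (3 at an unadjusted limma p under 0.05), 0 lower with equal numbers (6) and 1 lower with no trend.

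The replicate numbers are not stated to pair libraries. With the replicate block, 118 bins were called higher and 77 lower, 40 genes higher and 147 lower, and 1 chromosome higher and 0 lower (3 at an unadjusted limma p under 0.05). With the crossed replicate block, chosen after seeing the data, 382 bins were called higher and 327 lower. For long genes its calls were not used, because their correlation was above the limit set for this block. The difference in the number of peaks ranged from -9084 to 604 as each library was left out. Lists rebuilt from the MACS peaks shared 63.1% of APH and 66.6% of CDC6 sites, with a gene-end difference of 11.9 percentage points. With 1 library left out these ranged from 52.5% to 72.8%, from 53.0% to 74.99%, and from 6.47 to 13.3 percentage points.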
